A study of Bos taurus with 12 samples.

Results

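The genes described here are 47 regulators of skeletal development, nearly all transcription factors, picked as a list by gene symbol: the SOX, RUNX, MEF2, DLX, FOX, MSX, NFI, ETS, CEBP, KLF and STAT families and related genes. Every probe set whose platform symbol was on the list was taken, whatever its values, and each was kept separately. The array named 26 of the 47 genes, with 41 probe sets, out of 9155 named genes in all. The other 21 had no probe set under their symbol, though 10638 probe sets carry no symbol, and were not analysed here: SOX9, SOX5, SOX6, RUNX1, RUNX2, RUNX3, MEF2D, FOXO1, FOXO3, FOXC1, MSX2, PRRX1, TWIST1, TWIST2, TRPS1, ZBTB20, NFIX, KLF2, KLF6, KLF9 and STAT5A. The set therefore lacks the SOX trio that defines chondrocytes and all RUNX factors. WWP2, 1 of the 26, is a ubiquitin ligase and not a transcription factor.

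The RNA came from cartilage cells of the distal metacarpal growth plate of male dairy cattle, all younger than 10 months. No strain, allele or treatment is given for any group beyond a 4 hour Collagenase P digestion, which all cells shared. Density centrifugation then gave the lightest cells as hypertrophic zone (HZ) and the densest as reserve zone (RZ), so both groups are density fractions and not cells dissected by position. Of the 12 arrays, 6 were HZ and 6 RZ, in 6 numbered pairs. Whether each pair is 1 animal or a pool is not given, so each p-value sets a difference against scatter between pairs, whatever a pair is. In the limma fits used below, the scatter behind each SE and p-value is moderated. It blends the probe set's own scatter with that of all probe sets in the fit.

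Growth plate chondrocytes pass from a resting state through division to hypertrophy, when they enlarge and mineralise their matrix. As background, SOX9 with SOX5 and SOX6 holds the cartilage programme, while RUNX2, RUNX3 and MEF2C drive hypertrophy, with DLX5 acting beside them. ETS and KLF factors answer growth and stress signals in many cell types. STAT proteins and NF-kappa-B carry cytokine and growth hormone signals into the nucleus.

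Of the markers of cartilage, 8 of 12 were measured, and their summed signal ran from 87017 to 148669 on HZ arrays and from 79389 to 161565 on RZ arrays. Among 9 measured hypertrophic markers 6 rose in HZ (MEF2C, described below, is 1 of them), and among 6 measured reserve markers 4 fell, out of 782 probe sets that rose and 711 that fell in the whole table. The hypertrophic markers COL10A1, IBSP and SPP1 did not pass and were bright in both zones. Their mean signals were 21620, 11710 and 18261 in HZ and 20147, 10723 and 14727 in RZ. The reserve markers GDF5 and NT5E did not pass either, with log2 differences (HZ minus RZ) of 0.19 and 0.29. The spacing of the deposited values differed between pairs 1 and 2 and pairs 3 to 6. No label names a batch, and these sets of pairs are called batches here from that spacing alone. The 3′ over 5′ actin log2 ratio, a sign of RNA integrity, averaged 3.03 ± 0.685 on the HZ arrays against 2.34 ± 0.453 on the RZ arrays (SD, n = 6; exact sign-flip permutation test, two-sided p = 0.0625). It was higher in HZ in 5 of 6 pairs. The EF1A log2 ratio went the other way (-2.50 ± 0.394 in HZ, -2.26 ± 0.295 in RZ, exact test, p = 0.406, higher in HZ in 1 of 6 pairs). The GAPDH log2 ratio went the same way as that of actin (0.519 ± 0.651 in HZ, 0.103 ± 0.285 in RZ, exact test, p = 0.125, higher in HZ in 5 of 6 pairs). It was highest on HZ-3 (1.46) and HZ-4 (1.21), and counts are given below without those pairs too.

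Among the 41 probe sets, 4 rose in HZ and 1 fell. Those that rose belonged to ETS2 (both of its probe sets), MEF2C and STAT5B, and the 1 that fell was that of NFKB1. The 4 were 9.76% of the 41, where 3.26% of all 24016 probe sets rose. The 1 was 2.44%, where 2.96% of all fell, and in either direction the shares were 12.2% and 6.22%. The other 36 probe sets, standing for 22 genes, did not pass, with log2 differences (HZ minus RZ) from -0.57 to 0.55. The median log2 difference was 0.05 over the 41 probe sets and -0.01 over all. An unadjusted p under 0.05 was found for 9 that were higher and 4 that were lower, where the shares of all were 10.4% and 11.8%. With pairs 3 and 4 left out, 0 of the 41 passed in either direction by limma, with 10 at an unadjusted p under 0.05. The share of all probe sets at that unadjusted p was not counted for this setting, so the 10 cannot be read as many or few. The lowest adjusted p was then 0.0621, for ETS2, whose log2 difference was still 1.22. The numbers passing in the whole table then were 91 higher and 48 lower. The 41 were also brighter than most: 29 lay above the median level of all probe sets, and 4 of the 5 that passed were among these 29. With all 6 pairs, a fit of only the probe sets above that level gave 5 higher and 3 lower among the 29. Among all probe sets above that level, and not among all 24016, it gave 1034 higher and 1374 lower.

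**Figure D1:**
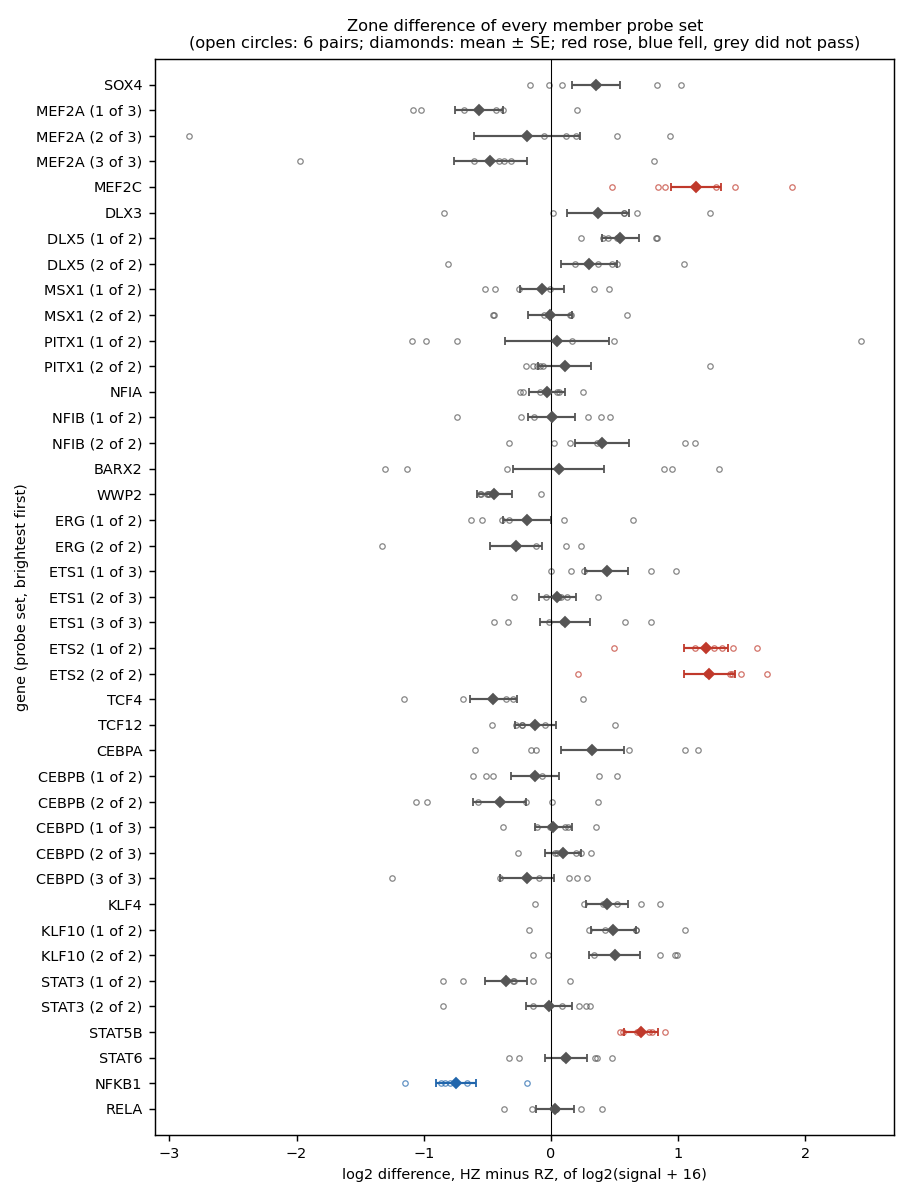
Log2 difference between HZ and RZ (horizontal axis, on the scale of log2(signal + 16)) for each of the 41 probe sets of the 26 genes, with open circles for the 6 pairs and diamonds for the mean with its standard error. Red marks the 4 that rose, blue the 1 that fell and grey the 36 that did not pass; some dim probe sets spread widely, such as that of PITX1 from -1.09 to 2.44 between pairs.

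ETS2 (Entrez Gene 281148), a factor that growth factor kinases switch on and that acts at many protease promoters, had the largest difference. At its brighter probe set the signal had a lowest, median and highest value of 2485, 4458 and 5290 in HZ and of 1546, 1769 and 1895 in RZ. Every HZ array lay above every RZ array. The RZ arrays were close together (1757 ± 123, SD, n = 6) and the HZ arrays spread more widely (4219 ± 1014). The log2 difference was 1.22 ± 0.17 (SE, limma, p-values adjusted across the 24016 probe sets by the Benjamini-Hochberg method, adjusted p = 0.00569; every adjusted p below is of this kind unless an exact test is named), a 2.33-fold rise. At the dimmer probe set the signal was 840, 1995 and 2330 in HZ and 637, 714 and 838 in RZ. These groups also did not overlap, and the log2 difference was 1.24 ± 0.20 (SE, adjusted p = 0.00989). Pair 2 gave the smallest rise at both probe sets, 0.50 and 0.21, where the other pairs gave 1.13 to 1.62 and 1.22 to 1.70. Without pair 2 the log2 differences were 1.36 and 1.45.

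ETS1, a close relative that binds the same core motif, was measured by 3 probe sets. Its brightest had signals of 1084, 1428 and 1860 in HZ and 762, 1048 and 1368 in RZ, and these groups overlapped. Its log2 difference was 0.44 ± 0.17 (SE, adjusted p = 0.162), with all pairs above 0, and the dimmer probe sets gave 0.05 and 0.11. ERG, the ETS factor of articular cartilage and endothelium, had signals of 290, 465 and 730 in HZ and 444, 480 and 746 in RZ. Its log2 difference was -0.19 ± 0.19 (adjusted p = 0.627), and -0.27 at a dim second probe set. ERG and ETS2 are adjacent protein-coding genes in the RefSeq table of the cattle assembly ARS-UCD2.0.

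MEF2C (Entrez Gene 512254), which histone deacetylase HDAC4 holds in check and which drives hypertrophy, rose from a low level. Its signal was 55.3, 104 and 183 in HZ and 18.6, 40.8 and 90.8 in RZ. The groups overlapped across pairs, but HZ was higher within each of the 6, by 0.48 to 1.90 on the log2 scale. The log2 difference was 1.14 ± 0.20 (SE, adjusted p = 0.0114), a 2.21-fold rise. This probe set was dim: the median level of all probe sets was 94.1. The constant of 16 therefore shrinks its difference, which was 1.45 with 1 added and 0.71 with 64 added. It passed in each of the 6 fits with a pair left out (log2 0.99 to 1.28). Without the replicate block its adjusted p was 0.0537.

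MEF2A, the relative that most tissues express, went the other way without passing. Its brightest probe set had signals of 1932, 3223 and 5964 in HZ and 4115, 4489 and 6430 in RZ. HZ was lower in 5 of 6 pairs, and pair 3 gave 0.21. The log2 difference was -0.57 ± 0.19 (SE, adjusted p = 0.112; 95% interval -0.99 to -0.14). Without pair 3 it passed at -0.72 (adjusted p = 0.0436), and so it did among the brighter probe sets alone (0.0339). The other MEF2A probe sets were dim, with mean signals of 45.3 to 67.8 in either zone, and gave -0.19 and -0.48.

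STAT5B (Entrez Gene 282376), a carrier of growth hormone signals, rose with the smallest spread of all that passed. Its signal was 253, 305 and 423 in HZ and 152, 200 and 220 in RZ, so that every HZ array lay above every RZ array. The 6 pairs gave log2 differences from 0.54 to 0.90 (mean 0.71 ± 0.13, SE, adjusted p = 0.0170), a 1.63-fold rise. The adjusted p was 0.0603, 0.0558 and 0.0623 without pair 1, 4 or 5. STAT5A, a near copy that lies next to STAT5B in the genome, had no probe set under its symbol, and how far this probe set also reads STAT5A transcripts was not tested.

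STAT3, which cytokines of the IL6 family activate, and STAT6, which serves IL4, did not pass. STAT3 had signals of 669, 1699 and 3136 in HZ and 1219, 2245 and 3831 in RZ at its brighter probe set, with HZ lower in 5 of 6 pairs. Its log2 difference was -0.35 ± 0.17 (SE, adjusted p = 0.249; 95% interval -0.73 to 0.02), while the dimmer probe set gave -0.02. STAT6 gave 0.12 ± 0.16 (adjusted p = 0.737). Its difference was -0.29 within pairs 1 and 2 but 0.32 within pairs 3 to 6 (zone by batch term, limma, unadjusted p = 0.0753, adjusted p = 0.999).

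NFKB1 (Entrez Gene 616115), which encodes the p105 precursor and the p50 subunit of NF-kappa-B, was the 1 gene that fell. Its signal was 602, 915 and 1775 in HZ and 1056, 1566 and 2791 in RZ. The groups overlapped, but HZ was lower in all 6 pairs, by 0.66 to 1.15 on the log2 scale in 5 of them and by 0.19 in pair 6. The log2 difference was -0.75 ± 0.16 (SE, adjusted p = 0.0254), which makes RZ 1.68-fold higher. The call was a narrow one. Without pair 1, 2, 4 or 5 the adjusted p was 0.08, 0.0655, 0.0666 and 0.0799, without the replicate block 0.194, and on the deposited ratio with nothing added 0.0719. RELA, the p65 partner subunit, had signals of 1086, 1774 and 2346 in HZ and 1406, 1718 and 2029 in RZ. Its log2 difference was 0.03 ± 0.15 (adjusted p = 0.934), with a 95% interval of -0.30 to 0.37.

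**Figure D2:**
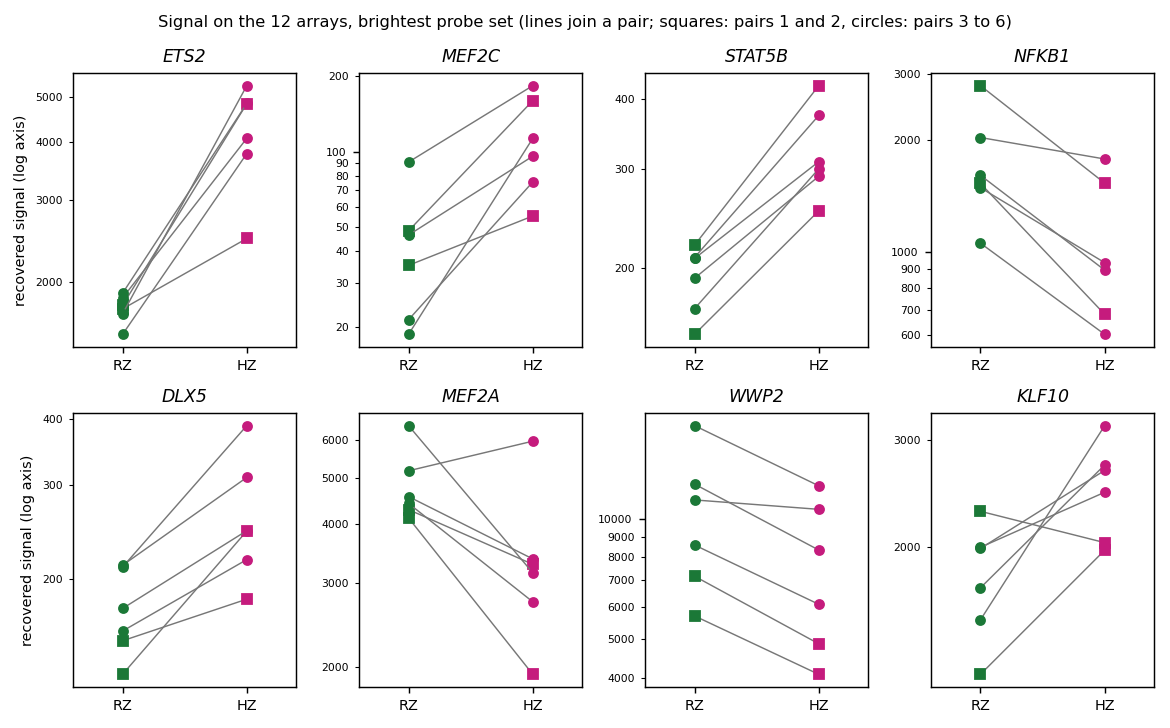
Recovered signal (vertical log axis) of the brightest probe set of 8 genes in RZ and HZ, with a line for each pair, squares for pairs 1 and 2 and circles for pairs 3 to 6. The ETS2 and STAT5B arrays of HZ all lie above those of RZ, NFKB1 is lower in HZ in all 6 pairs, and the lower row holds 4 genes that did not pass.

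Of the homeobox factors none passed. DLX5, which acts with RUNX2 in hypertrophy, came closest, with signals of 183, 246 and 388 in HZ and 132, 167 and 212 in RZ. The groups overlapped, HZ was higher in all 6 pairs, and the log2 difference was 0.55 ± 0.15 (SE, adjusted p = 0.0573; 95% interval 0.22 to 0.87). It passed with 64 added (adjusted p = 0.0238), after quantile normalization (0.0328) and among the brighter probe sets alone (0.0160). The dimmer DLX5 probe set gave 0.30 and DLX3 gave 0.37, each with pair 3 against the other pairs, at -0.81 and -0.84. MSX1, a repressor of limb mesenchyme, gave -0.07 and -0.01 at its probe sets. PITX1, a factor of hindlimb identity, and BARX2, a cartilage homeobox factor, were dim, with mean signals of 6.34 to 31.1, and gave 0.05 to 0.11.

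Of the zinc finger and leucine zipper factors none passed, with KLF4 and KLF10 higher in 5 of 6 pairs. KLF4, a factor of differentiation and stress, had signals of 6418, 8654 and 9917 in HZ and 4820, 5990 and 7213 in RZ, and gave a log2 difference of 0.44 ± 0.16 (SE, adjusted p = 0.148). KLF10, which TGF-beta induces, gave 0.49 ± 0.18 (adjusted p = 0.137) and 0.50 at its dimmer probe set. For both genes the brightest probe set was below 0 in pair 2 alone, at -0.12 and -0.17. CEBPD, a rapid responder to inflammation, reached mean signals of 11239 in HZ and 10861 in RZ and gave 0.02 ± 0.15 (95% interval -0.31 to 0.35), with 0.09 and -0.19 at its other probe sets. CEBPB, which promotes hypertrophy together with RUNX2, gave -0.13 and -0.40. CEBPA, the factor of fat and myeloid cells, was near the bottom of the range (mean signals of 17.8 in HZ and 9.92 in RZ) and gave 0.33.

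WWP2 was bright and slightly lower in HZ in every pair. WWP2 tags proteins with ubiquitin, and its gene is a target of SOX9. Its signal was 4074, 7222 and 12082 in HZ and 5706, 9863 and 17094 in RZ, and the groups overlapped. Within pairs HZ was lower by 0.48 to 0.56 in 5 of them and by 0.08 in pair 5. The log2 difference of -0.44 ± 0.14 (SE, adjusted p = 0.0929) did not pass, but did with 64 added (adjusted p = 0.0221) and among brighter probe sets (0.0370). TCF4, an E protein that pairs with TWIST factors, gave -0.45 ± 0.19 (adjusted p = 0.190), and its relative TCF12 gave -0.12. SOX4, the SOX factor of progenitor cells, gave 0.35 ± 0.19 (adjusted p = 0.311), with 1.02 and 0.84 in pairs 1 and 4 and -0.16 to 0.36 in the others. NFIA gave -0.03, with all pairs between -0.24 and 0.25. NFIB, its partner in the nuclear factor I family, gave 0.01 and 0.40 at dim probe sets.

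In all 6 pairs, 6 of the 41 probe sets were higher in HZ (14.6%, against 6.85% of all) and 2 were lower (4.88%, against 7.15% of all). The 6 were those that rose, DLX5 and the brightest of ETS1, and the 2 were NFKB1 and WWP2. All HZ arrays lay above all RZ arrays for 3 probe sets, or 7.32%, against 1.68% of all, and below them for 0, against 1.21% of all. The 3 were both probe sets of ETS2 and that of STAT5B, so they stand for fewer genes than probe sets.

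Relatives within a family were compared directly, as the zone difference of 1 gene minus that of another in each pair, over 15 combinations. In 6 of the 15 the sign was the same in all pairs, which gives the smallest p that 6 pairs allow (exact sign-flip permutation test, two-sided p = 0.03125). None passed after Benjamini-Hochberg adjustment over the 15 (exact test, adjusted p = 0.0781 for these 6). With 6 pairs, a few comparisons at that smallest p cannot pass this adjustment, however large their differences, so the failure to pass says little. The values that follow compare zone differences and not levels. MEF2A lay below MEF2C by 1.71 ± 0.75 on the log2 scale (SD over 6 pairs; range over pairs -2.92 to -0.69). ETS2 exceeded ERG (ERG minus ETS2 -1.41 ± 0.51) and ETS1 (ETS1 minus ETS2 -0.78 ± 0.39). STAT5B exceeded STAT3 (STAT3 minus STAT5B -1.06 ± 0.42) and STAT6 (STAT5B minus STAT6 0.59 ± 0.40), and NFKB1 minus RELA was -0.78 ± 0.36. In contrast KLF4 and KLF10 stayed within 0.20 of each other in every pair (mean -0.05 ± 0.10).

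**Figure D3:**
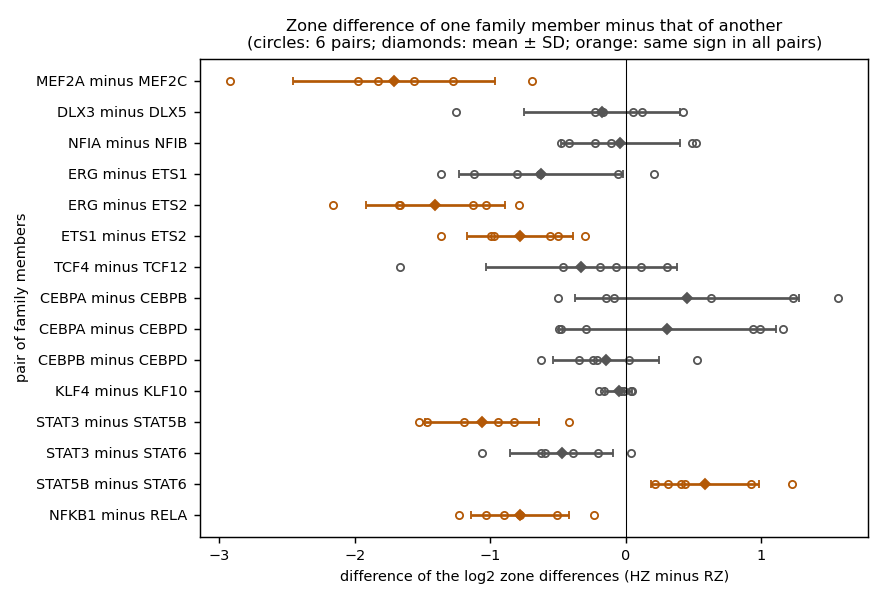
Zone difference (HZ minus RZ, log2) of 1 family member minus that of another, each at its brightest probe set, for 15 combinations; circles are the 6 pairs and diamonds the mean with its SD. Orange marks the 6 combinations with the same sign in all pairs, from -1.71 for MEF2A minus MEF2C to 0.59 for STAT5B minus STAT6.

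Several genes had more than 1 probe set, and these were compared in the same way. Over 12 genes and 15 comparisons with the brightest probe set, 0 reached the smallest p (exact test, lowest adjusted p = 0.938). The ETS2 probe sets differed by 0.03 ± 0.16 (SD over 6 pairs), the smallest SD of the 15, and those of KLF10 by 0.01 ± 0.31. The spread was wide at dim probe sets: a MEF2A probe set minus the brightest ranged from -3.05 to 1.62 between pairs, and that of PITX1 from -2.55 to 2.24.

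The levels of some probe sets separated pairs 1 and 2 from pairs 3 to 6 in both zones. The dimmer KLF10 probe set differed by -2.45 in HZ and -2.41 in RZ (log2 level in pairs 1 and 2 minus that in pairs 3 to 6), where the brighter differed by -0.45 and -0.09. The dimmer CEBPB probe set differed by -2.21 and -2.40 and the dimmest CEBPD probe set by -2.08 and -2.73, where the brightest differed by 0.012 in HZ for CEBPB and by -0.49 in HZ and -0.45 in RZ for CEBPD. These 3 were 7.32% of the 41, and 0.221% of all probe sets had so large a difference in both zones. Each pair holds both zones. Of the 41 none passed for a zone by batch term (limma; 2 of all probe sets did), and 0 had an unadjusted p under 0.05 for it. The zone difference in pairs 1 and 2 and in pairs 3 to 6 was 0.96 and 1.34 for ETS2, 0.97 and 1.23 for MEF2C, 0.79 and 0.67 for STAT5B and -1.0 and -0.62 for NFKB1. For 13 of the 41 the sign differed between the batches. The 5 that passed had 1 sign in all 6 pairs, so they could not be among the 13. How many of all probe sets changed sign, or had an unadjusted p under 0.05 for the batch term, was not counted. The 13 and the 0 can therefore not be read as many or few. Pair 2 gave the lowest zone difference for 18 of the 41 probe sets (43.9%), and for 19.7% of all.

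Genes that these factors are known to control or work with were taken as lists, which were chosen with earlier results of these data known. Each list gene stands at its brightest probe set, while shares of all probe sets, here and below, include dim ones and those without a symbol. The shares are therefore not like for like. Of 12 measured target genes of RUNX2 and MEF2C, 6 rose, 0 fell and 6 did not pass, where 3.26% of all probe sets rose. The median log2 difference was 0.53 against -0.01 over all probe sets. This list repeats hypertrophic markers counted above: MMP13, IHH, PTH1R, ALPL and SCIN, which rose, and COL10A1, IBSP and SPP1, which did not pass. RUNX2 itself had no probe set under its symbol. The collagenase MMP13 rose by 2.04 ± 0.23 (SE) and the hedgehog ligand IHH by 1.54 ± 0.20. DMP1, which binds mineral, PTH1R, SCIN and the phosphatase ALPL rose by 1.34, 0.92, 0.84 and 0.73. COL10A1 (0.11), IBSP (0.14), SPP1 (0.31) and VEGFA (0.32) did not pass, nor did BGLAP and CDKN1A, at -0.99 and -0.61. Among 13 measured matrix genes that SOX9 controls, MATN1 fell by 0.84 ± 0.20 (adjusted p = 0.0404) and 12 did not pass (median 0.04). The MATN1 probe set was dim, with mean signals of 55.3 in HZ and 116 in RZ. Of the bright genes COL2A1 gave 0.15, ACAN 0.13, FMOD -0.49 (adjusted p = 0.161) and PRELP -0.65 (adjusted p = 0.0799).

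Of 21 measured genes that NF-kappa-B and STAT proteins induce or that carry their signals, 3 fell (14.3%, where 2.96% of all probe sets fell). None rose, 18 did not pass, and the median was -0.19. NFKB2, the second precursor subunit, fell by 1.15 ± 0.18 (SE, adjusted p = 0.00932). The cytokine IL6 fell by 1.39 ± 0.32 and the chemokine CCL20 by 1.03 ± 0.21, each lower in HZ in 6 of 6 pairs. ICAM1 and VCAM1 went opposite ways without passing, at -0.59 (adjusted p = 0.0683) and 0.69 (adjusted p = 0.0818). NFKBIA, the inhibitor that NF-kappa-B itself induces, gave -0.38 (adjusted p = 0.204), and SOCS2 and CISH, which STAT5 proteins induce, gave 0.25 and -0.21 without passing. FOXO target genes were taken too, although no probe set carried the symbol FOXO1 or FOXO3. Of 9, FBXO32, GADD45A, CAT and CITED2 rose, by 1.45, 1.28, 0.96 and 0.67, PDK4 fell by 1.10, and 4 did not pass (median 0.34).

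Among 16 measured cofactors and antagonists, ID3, which blocks E proteins such as TCF4 and TCF12, fell by 0.96 ± 0.17 (SE), and 15 did not pass (median -0.15). Its relative ID1 gave -1.08 (adjusted p = 0.0616) and was lower in 6 of 6 pairs. The class IIa histone deacetylases HDAC5 and HDAC7, which restrain MEF2 factors, gave 0.04 and 0.42. Of 11 other skeletal transcription factors, EPAS1, the hypoxia factor HIF-2 alpha, rose by 1.68 ± 0.17 and the WNT effector TCF7L2 by 1.23 ± 0.20, TCF7 fell by 0.91 ± 0.22, and 8 did not pass (median 0.26). Of 15 genes that tissue digestion and stress induce quickly, IER2 rose by 0.72 ± 0.16 and 14 did not pass, with a median of 0.08, FOS at -0.06 and EGR1 at -0.20. KLF4, KLF10, CEBPB and CEBPD respond to the same kind of stimulus, and its part in their levels was not tested.

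**Figure D4:**
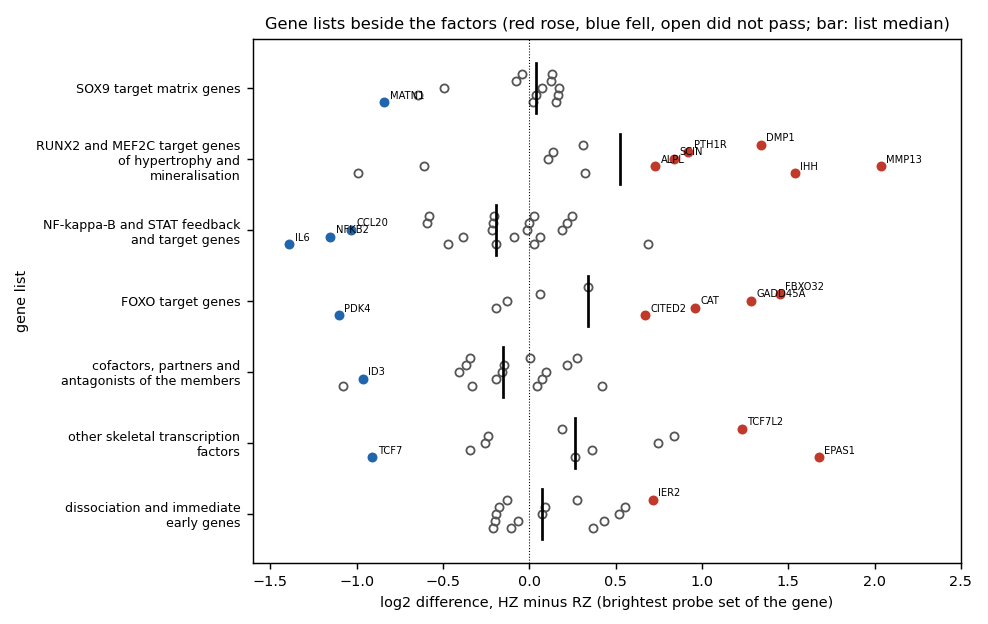
Log2 difference between HZ and RZ (horizontal axis) of each measured gene in 7 lists, at its brightest probe set, with the list median as a bar. Filled red points rose and filled blue points fell; in the list of RUNX2 and MEF2C targets 6 of 12 rose and 0 fell, and in that of NF-kappa-B and STAT genes 0 of 21 rose and 3 fell.

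Markers of other cells moved between the zones as well, and in bulk RNA fewer cells of a type and less RNA per cell cannot be told apart. ETS2, MEF2C and STAT5B are also made by macrophages. Of 10 measured macrophage and monocyte markers, 5 rose (AIF1, C1QA, C1QB, C1QC and CSF1R), PTPRC fell and 4 did not pass. Their summed signal was 1426 to 3337 in HZ and 1083 to 2929 in RZ, and the log2 ratio of HZ over RZ in the 6 pairs ran from -0.40 (pair 6) to 0.90 (pair 5). The 5 that rose were higher in HZ in every pair, in pair 6 by 0.66 (C1QB) to 2.09 (C1QA), while CD14 and PTPRC gave -1.01 and -1.82 there. Of 5 measured osteoclast markers, CTSK and ACP5 rose and 3 did not pass, with sums of 9742 to 14111 in HZ and 3958 to 7510 in RZ. The part of such cells in the rises of ETS2, MEF2C and STAT5B was not tested.

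NFKB1 is abundant in blood cells, and some of their markers were lower in HZ. Of 10 T cell and cytotoxic markers, CD2 and NKG7 fell and 0 rose. Their summed signal was 726.5 to 1492 in HZ and 635 to 1460 in RZ, with HZ above RZ in pairs 3 to 6 and below it in pairs 1 and 2. GNLY (mean signal 552 in HZ and 133 in RZ) gave 2.36 to 3.09 in pairs 3 to 6, where CD2 and NKG7 were lower in HZ in each pair. Of 9 granulocyte markers, CATHL1 fell and 8 did not pass, and the sums were 506 to 2477 in HZ and 695 to 10951 in RZ. Among 9 perichondrial fibroblast markers, FBN1 and PDGFRA fell, with sums of 4788 to 7363 in HZ and 7458 to 23323 in RZ. Their part in the fall of NFKB1 was not tested. Of the 8 endothelial markers PECAM1 fell, and their sums were 221 to 582 in HZ and 544 to 806 in RZ, with VWF near the bottom of the range (7.86 and 5.93). None of the 5 erythroid, 5 adipocyte and 3 B cell markers passed, while DMP1 alone of 4 osteoblast markers rose. ALAS2 and CD79A, defining markers of red cells and B cells, had mean signals under 6 in both zones. JCHAIN, another of the B cell markers, had mean signals of 121 in HZ and 958 in RZ. It gave -4.79 and -3.46 in pairs 1 and 2, and HZ was higher in 2 of 6 pairs (adjusted p = 0.202). The B cell sums were 72.2 to 291 in HZ and 80.2 to 2789 in RZ. The part of such cells in the fall of NFKB1 was not tested.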

How the data were processed

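Chondrocyte RNA was extracted with RNA STAT-60, checked on a Bioanalyzer and labelled with biotin by the MessageAmp II kit, per the labels' protocols. The deposited table holds a ratio per probe set and array. Of the scanner software and the normalization, nothing is given in the sources used here. Every one of the 12 columns was matched to a sample by its name (0 not mapped).

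The deposited ratios move in whole steps, so the authors appear to have divided signals with a fixed smallest step by 1 value per probe set. For 21901 of 24128 probe sets (90.8%) that value was the probe set's own median, and for 2227 a fixed value. Signals were recovered for all of them, with no value farther than 0.0722 of a step from a whole number. A step was taken as 0.1 signal units, which is an assumption that sets the scale of every signal and the size of the added constant relative to it.

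Probe sets were named from the platform annotation: 13292 had 1 symbol, 86 several and 10638 none, and 13263 matched the RefSeq gene table (0 symbols changed). The 112 control probe sets were left out, which leaves 24016. The log2(signal + 16) values were fitted with limma 3.58.1 in R 4.3.3 with the pair as a fixed block (5 residual degrees of freedom), and p-values were adjusted by the Benjamini-Hochberg method at a threshold of 0.05. The pairing comes from the sample numbers and the description of 6 independent pairs. Same-numbered arrays deviated from their group means together, with correlations of 0.124 to 0.447, all above 0.1. The group means were taken over both batches, so level differences between batches are part of these correlations. Of the 6 HZ arrays, 5 correlated best with the RZ array of their own number.

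Families, probe sets of 1 gene and RNA quality were compared by exact sign-flip permutation tests over the 6 pairs. A gene in a list stands at its brightest probe set, by mean log2 signal. Signals of all arrays are given for each probe set that passed and for factors picked for their role, and other genes by difference and error. The genes and lists were chosen with earlier results of these data known. The recovery and the fit were tested on simulated data. No probe or gene sequence was used here. Alternatives were another added constant, the deposited ratio, quantile normalization, a filter on dim probe sets, other uses of the replicate block, single pairs left out and each batch alone. The alternative without pairs 3 and 4 was chosen after seeing the data. The number of arrays limits the precision.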

Additional observations from a re-analysis of the deposited data

Results flagged for a closer look

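In 5 of the 82 groups of 6 arrays examined, 1 sample lay far from the others, and chance alone gives about 1 in 20. At 1 dim MEF2A probe set HZ-3 had a signal of 2.10, where the other HZ arrays had 53.4 to 75.3. At the other dim MEF2A probe set RZ-2 had 15.5, where the other RZ arrays had 62.9 to 115. At the PITX1 probe sets HZ-5 had 82.4 (other HZ arrays 3.36 to 10.7) and HZ-3 had 32.0 (other HZ arrays 3.57 to 6.76). At the brighter ERG probe set RZ-6 had 746, where the other RZ arrays had 444 to 534.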

How the results depend on the processing

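Over the probe sets and settings compared (644 in all), 558 kept their direction and side of the threshold, 25 lost the call, 9 gained one and 52 changed sign. The 5 probe sets that passed changed sign in 0 of 79 settings, kept the call in 54 and lost it in 25. The constant of 16, the dim probe sets and the number of pairs limit what can be called, and the cause of each change below was not tested.

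The main counts were 4 higher and 1 lower among the 41 probe sets, and 782 and 711 among all. With 1 added, 0 of the 41 were lower, and 367 and 215 of all passed. With 64 added 2 were lower, and 1120 of all. On the log2 deposited ratio 0 were lower, with 315 and 163 of all. After the filter on dim probe sets 3 were lower, and 1374 of all that the filter kept. With no replicate block 0 were lower, with 505 and 326 of all, and with the pair as a random replicate block 0 were lower. Of the calls among the 41, those of MEF2C (adjusted p = 0.0537 by limma) and NFKB1 (0.194) were lost without the block. Calls gained by limma beside those given for MEF2A, DLX5 and WWP2 were ETS1 after quantile normalization (adjusted p = 0.0483) and KLF10 after the filter on dim probe sets (0.0499). Leaving out 1 pair at a time gave 0 to 2 lower, and 336 to 649 higher and 223 to 895 lower among all. Pairs 1 and 2 alone gave 0 in each direction in both sets by limma, with an unadjusted p under 0.05 for 2930 of all and 5 of the 41. Pairs 3 to 6 alone gave 2 and 0 among the 41 and 258 and 78 among all. Without pairs 3 and 4, a setting chosen after seeing the data, 0 and 0 of the 41 passed, and 91 and 48 of all.

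The log2 differences that changed sign belonged to probe sets that did not pass. In pairs 1 and 2 alone they were 0.32 for a MEF2A probe set, 0.38 for MSX1, -0.30 and -0.14 for PITX1, 0.010 for ERG, -0.0095 and 0.24 for CEBPD, 0.25 for STAT3, -0.29 for STAT6 and -0.17 for RELA. In pairs 3 to 6 alone they were 0.026 for MSX1, -0.16 for NFIB and -0.0034 for ETS1. Without pairs 3 and 4 they were 0.44 for MEF2A, 0.060 for MSX1, -0.11 for PITX1, 0.053 for CEBPB and 0.11 for STAT3. After quantile normalization they were 0.037 for MSX1, -0.012 for NFIB, -0.044 for CEBPD and 0.032 for STAT3. With 1 added they were -0.0088 for NFIB and -0.022 for BARX2, and on the deposited ratio -0.011 and -0.041. With 1 pair left out the ranges were -0.19 to 0.34 for BARX2, -0.048 to 0.098 and -0.28 to 0.027 for CEBPD, -0.012 to 0.12 and -0.025 to 0.22 for ETS1, -0.41 to 0.34 for MEF2A, -0.18 to 0.020 and -0.13 to 0.083 for MSX1, -0.088 to 0.010 for NFIA, -0.086 to 0.15 for NFIB, -0.43 to 0.28 and -0.12 to 0.17 for PITX1, -0.040 to 0.11 for RELA and -0.081 to 0.15 for STAT3.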
